A study of Mus musculus with 12 samples.

Results

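The regions described here are promoter sites shared by Meis1 and Hoxb13 in the mouse ventricle. They are the Hoxb13 peaks whose deposited annotation places them in a promoter (within 1 kb of a start site) and that overlap a Meis1 peak by at least 1 bp. There were 799 such sites among 8980 Hoxb13 promoter peaks and 22284 Hoxb13 peaks in all. In Hoxb13 promoter peaks as a whole the share with such an overlap was 8.9%, which the rule itself fixes. The rule used the position, the overlap and the annotation of the peaks, so these are given as descriptions.

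Chromatin immunoprecipitation followed by sequencing was carried out on heart ventricles taken at postnatal day 15 from CD-1 mice, which are outbred. The 12 libraries formed 4 groups of 3: Meis1 precipitates, Hoxb13 precipitates, and the input chromatin numbered with each of them, all from untreated animals as far as the labels say. By the protocol each heart's chromatin was split between the antibodies, whereas the sample titles number the replicates of each factor separately. Each factor was represented by 1 peak list made over its 3 libraries. A peak's strength is the signal value deposited with it, and its rank is its place by strength within its own list. No value per heart exists in these lists, so no spread between hearts can be given, read depth is unknown, and no difference below was tested between animals. Intervals are exact binomial 95% intervals for shares and order-statistic 95% intervals for medians, and they cover counting over regions or genes only. For a count of 0 the limit given is 3 counts of the total. In whole ventricle, a stronger peak in each cell and a peak in more of the cells cannot be told apart.

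Meis1 belongs to the TALE class of homeodomain proteins. Meis proteins bind DNA together with Pbx and Hox proteins, and their preferred core is TGACAG. Hoxb13 is a posterior Hox protein, and posterior Hox proteins prefer sites with the core CAATAAA. Both factors are known in the postnatal mouse heart for their part in the withdrawal of cardiac muscle cells from the cell cycle. A promoter is the stretch around a start site where general and gene-specific factors gather, and in mammals many promoters lie in sequence rich in CpG.

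Promoter sequences from RefSeq (GRCm38.p6, the same build family as the mm10 coordinates of the peaks) could be read for the bases from 250 before to 50 after the start sites. The following 8 are shown because they hold a Meis or Hoxb13 core that lay before the start site and wholly inside the Hoxb13 peak. They are the first of the sites named below, in order of the weaker of the 2 ranks, and sites not named below were passed over. Only bases before the start site are printed, 5′ to 3′ on the strand of the gene. Capitals mark the Meis core TGACAG or its reverse complement CTGTCA, and in Zfp691 also the reverse complement TTTATTG of the Hoxb13 core CAATAAA.
Ska2: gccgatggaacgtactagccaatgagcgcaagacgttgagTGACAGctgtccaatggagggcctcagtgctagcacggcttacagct
Hjurp: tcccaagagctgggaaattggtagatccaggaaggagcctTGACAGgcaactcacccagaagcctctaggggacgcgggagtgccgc
Zfp691: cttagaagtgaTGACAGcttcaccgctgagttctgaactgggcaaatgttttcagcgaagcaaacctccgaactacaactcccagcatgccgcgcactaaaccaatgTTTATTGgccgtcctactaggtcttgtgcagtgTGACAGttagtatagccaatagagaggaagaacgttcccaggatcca
Map3k3: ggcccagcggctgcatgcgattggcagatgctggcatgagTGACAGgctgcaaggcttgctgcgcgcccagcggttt
Ddx50: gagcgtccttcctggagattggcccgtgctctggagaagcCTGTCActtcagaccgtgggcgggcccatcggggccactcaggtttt
Fam13a: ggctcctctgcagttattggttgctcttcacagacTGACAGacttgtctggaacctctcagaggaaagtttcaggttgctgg
Zfp281: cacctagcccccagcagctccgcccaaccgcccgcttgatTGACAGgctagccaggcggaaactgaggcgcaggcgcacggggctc
Ssbp2: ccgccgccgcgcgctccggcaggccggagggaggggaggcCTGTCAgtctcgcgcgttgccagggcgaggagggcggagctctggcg

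The Ska2 stretch is chr11:87109146-87109232 (+ strand) and the Hjurp stretch is chr1:88277691-88277777 (- strand). The Zfp691 stretch is chr4:119174259-119174445 (- strand), and the Map3k3 stretch is chr11:106084510-106084586 (+ strand). The Ddx50 stretch is chr10:62651319-62651405 (- strand), and the Fam13a stretch is chr6:59024671-59024752 (- strand). The Zfp281 stretch is chr1:136624815-136624900 (+ strand), and the Ssbp2 stretch is chr13:91460984-91461070 (+ strand). In Ska2, Hjurp, Ddx50, Fam13a and Zfp281 the marked Meis core lay inside the Meis1 peak. In Map3k3 it lay outside it, and in Ssbp2 all but its first base lay inside. In Zfp691 the Meis core farther from the start and the Hoxb13 core lay inside the Meis1 peak, and the other Meis core lay outside it. In Zfp281 the Meis core is preceded by tgat, so it shares letters with the joint Pbx-Meis core TGATTGAC. A match to these letters is a description of the sequence and not proof of a bound site.

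The shared sites were ordered by the weaker of their 2 ranks. Kdm4b, a histone demethylase, came first, with a Meis1 strength of 116 (rank 667 of 30534) and a Hoxb13 strength of 51.2 (rank 752 of 22284). Ska2, a component of the complex that holds kinetochores on spindle fibres, had the second place, with strengths of 96.2 for Meis1 and 171 for Hoxb13. Pknox1, which encodes Prep1, a TALE relative of Meis1, had a Meis1 strength of 151 and a Hoxb13 strength of 44.1, and the 2 summits stood 9 bp apart. Both summits lay downstream of the Pknox1 start site, the Meis1 summit at +99 bp and the Hoxb13 summit at +90 bp.

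Hjurp, the chaperone of the centromeric histone variant, followed with strengths of 80.3 for Meis1 and 59.4 for Hoxb13. Zfp691, a zinc finger gene, had 151 for Meis1 and 42.2 for Hoxb13. Mrpl17, a protein of the large mitochondrial ribosomal subunit, had 67.9 for Meis1 and 48.1 for Hoxb13, but its peaks overlapped by only 9 bp and its summits lay 229 bp apart. Map3k3 and Mapk7, kinases of the Erk5 cascade, were seventh and ninth in this order. Map3k3 had 84.4 for Meis1 and 40.3 for Hoxb13, and Mapk7 had 64.6 for Meis1 and 59.3 for Hoxb13 with the whole 284 bp Meis1 peak inside the Hoxb13 peak. The other members of the first 15 were Ddx50, 4632428C04Rik, 1700096K18Rik, Zfand2b, Eif2ak3, Fam13a and Rnf14. Eif2ak3 encodes the endoplasmic reticulum stress kinase Perk.

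The 10 strongest Hoxb13 peaks among the shared sites had Meis1 partners of 18.6 to 96.2. Rpl13, a cytosolic ribosomal protein gene, had the strongest Hoxb13 peak of all shared sites at 251 (rank 30) and a Meis1 partner of 18.6 (rank 15445). Hes1, a Notch target and repressor, had a Hoxb13 strength of 95.1 and a Meis1 strength of 19.9. Gtf2h1, a subunit of the general factor TFIIH, had 94.9 for Hoxb13 and 19.8 for Meis1. Sp2, a factor of the family that binds GC boxes, had 109.6 for Hoxb13 and 51.4 for Meis1. Tcf7l2, the Wnt-pathway DNA-binding factor, had 89.2 for Hoxb13 and 46.8 for Meis1. The rest of the 10 strongest were Ska2, 4632428C04Rik, Fnip2, Hbegf and Tada1, with Hoxb13 strengths between 87.2 and 171.

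The strongest Meis1 partners included promoters of muscle genes. Mef2a, a transcription factor of cardiac and skeletal muscle, had the strongest at 235 (rank 139), which 2 overlapping Hoxb13 peaks of strength 32.5 and 27.0 shared. Tnnt2, the cardiac troponin T gene, had a Meis1 strength of 179 (rank 263) and a Hoxb13 strength of 21.2 (rank 11467), with an overlap of 14 bp. Mir133a-1, a muscle microRNA gene, had a Meis1 peak of 168, assigned in the deposited annotation to the neighbouring Mir1b, and a Hoxb13 peak of 24.1. The overlap at Mir133a-1 was 2 bp, as small as any among the shared sites. Ten1, part of a telomere complex, had a Meis1 strength of 167 and a Hoxb13 strength of 31.1. Others were 1700096K18Rik at 201, Ssbp2 at 178, Depdc1b at 176 and Zfp68 at 171.

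**Figure D1:**
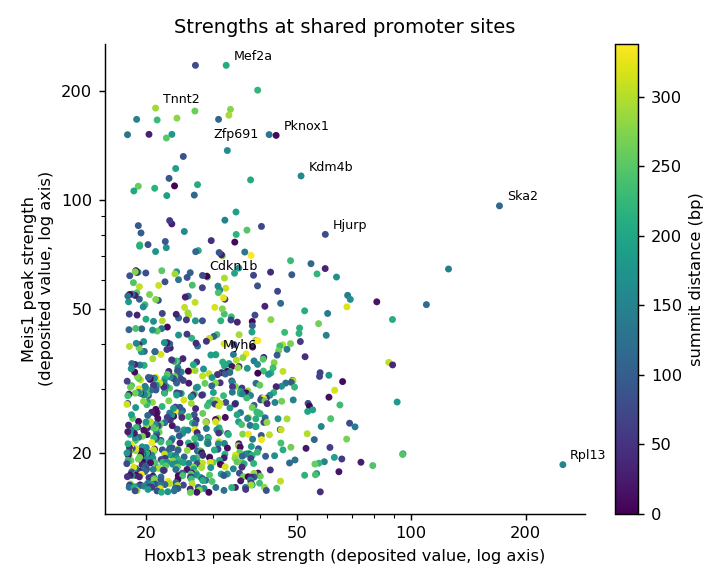
Deposited Hoxb13 strength (x, log axis) against the strength of the closest Meis1 partner peak (y, log axis) for each of the 799 shared promoter sites, with colour giving the distance between the 2 summits in bp. Sites strong for one factor are spread over the whole range of the other, with Rpl13 at the far right and Mef2a at the top, and few sites lie high on both axes.

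Strengths of the 2 factors were nearly unrelated over the shared sites, as the plot of strengths shows. Spearman's rho was 0.10 over the 799 sites, which share their libraries and partly their Meis1 peaks. With the Meis1 peak of the closest summit taken as partner, both peaks were among the strongest 10% of their lists in 38 sites and in the stronger 50% in 492. Shared sites had a median Hoxb13 strength of 26.5 (range 17.8 to 251), against 24.9 in the 8181 Hoxb13 promoter peaks without a Meis1 peak. Of the shared sites 23.4% lay in the strongest 10% of the Hoxb13 list, against 17.2% of those other promoter peaks. The 746 Meis1 partner peaks had a median strength of 26.5, against 22.2 in the 1308 Meis1 promoter peaks without a Hoxb13 peak, and 81.8% against 68.9% lay in the stronger 50% of the Meis1 list.

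The overlap varied with peak strength in both lists. Among Hoxb13 promoter peaks cut into 10 equal classes by strength, 10.9%, 12.5% and 10.4% of the 3 strongest classes overlapped a Meis1 peak, and 6.79% to 8.69% of the others. Among Meis1 promoter peaks the share that overlapped a Hoxb13 peak was highest in the fourth class, at 49.0% (42.0 to 56.1), and lowest in the weakest, at 21.8% (16.4 to 28.1). Over all 2056 Meis1 promoter peaks, 740 (36.0%) overlapped a shared site.

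**Figure D2:**
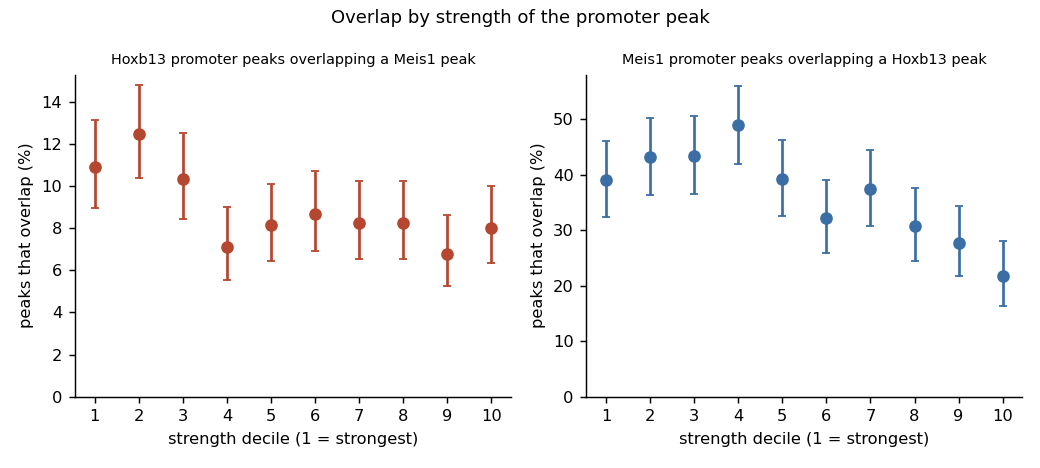
Share of promoter peaks (y, percent) that overlap a peak of the other factor in 10 equal classes of strength (x, 1 is the strongest), for Hoxb13 promoter peaks on the left and Meis1 promoter peaks on the right, with exact 95% binomial intervals. The scales differ: the Hoxb13 shares stay between 6.79% and 12.5%, and the Meis1 shares run from 49.0% in the fourth class to 21.8% in the weakest.

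The summits of the 2 factors seldom coincided. The 799 sites formed 809 pairs with 746 Meis1 peaks. The median distance between the summits of a pair was 162 bp (151 to 170, range 0 to 338), and the median overlap was 170 bp (range 2 to 284). Summits stood within 10 bp of each other in 30 pairs, within 50 bp in 127 and within 100 bp in 256 (31.6%). Pairs of shared peaks outside promoters were similarly spaced, with a median of 157 bp and 33.8% within 100 bp. The Meis1 summit lay inside the Hoxb13 peak in 489 of the 799 sites (61.2%). The usual peak widths were 396 bp for Hoxb13 and 284 bp for Meis1, and they set an upper limit on the distance that an overlap allows. The median distance therefore depends on the widths and the overlap rule as well. The spacing of peaks placed at random within an overlap was not computed.

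Among pairs in the stronger 50% of both lists, the 10 closest had summits at most 6 bp apart. Samd4b, which encodes an RNA-binding protein, had both summits at the same base, 320 bp before the start site, with a Meis1 strength of 33.3 and a Hoxb13 strength of 39.4. Gm16998 also had both summits at the same base. Strn3, a scaffold of a phosphatase and kinase complex, had summits 1 bp apart, with strengths of 109 for Meis1 and 23.8 for Hoxb13. The others were Mir466d at 1 bp, Btf3l4 at 2 bp, Cdca3 and Papd4 at 3 bp, Plpp5 at 4 bp, Shpk at 5 bp and Zfp959 at 6 bp.

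Meis1 summits at shared sites lay mostly upstream of the start, and Hoxb13 summits lay on both sides of it. The Meis1 summit closest to each site had a median position of -72 bp (-86 to -58) from the start of the site's gene, and 527 of 799 (66.0%) were upstream. The Hoxb13 summit had a median position of +39 bp, and 426 of 799 (53.3%, 49.8 to 56.8) were downstream. The Meis1 summit was upstream and the Hoxb13 summit downstream of the start in 191 sites (23.9%), against 37 sites (4.63%) with the reverse arrangement. Both summits were upstream in 336 sites and both downstream in 234. Over pairs, the Meis1 summit was the more upstream of the 2 in 494 of 809 (61.1%, 57.6 to 64.4). Myh6, the main myosin heavy chain gene of the adult mouse ventricle, had this arrangement, with its Meis1 summit at -131 bp and its Hoxb13 summit at +140 bp.

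The Hoxb13 summits at shared sites formed 2 peaks on either side of the start site. Counted in 50 bp steps, they were most frequent at +100 to +150 bp, with 97 sites (12.1%), fell to 37 sites (4.63%) at 0 to +50 bp, and had a second, lower maximum at -150 to -100 bp, with 56 sites (7.01%). The other Hoxb13 promoter peaks had the same downstream maximum, at 9.77% of summits, but only 4.34% at -150 to -100 bp. Meis1 summits at shared sites had a single maximum at -100 to -50 bp, with 93 sites (11.6%), which was also where the other Meis1 promoter peaks were most frequent, at 9.94%.

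**Figure D3:**
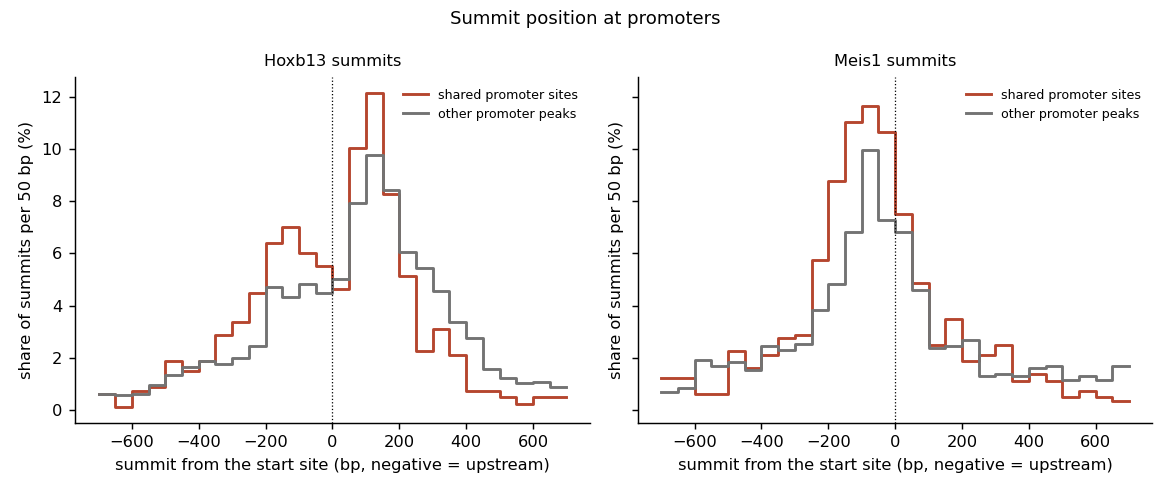
Position of Hoxb13 summits (left) and Meis1 summits (right) relative to the start site of the assigned gene (x, bp, negative is upstream) as the share of summits per 50 bp (y, percent), for shared promoter sites and for promoter peaks without the other factor. Hoxb13 summits at shared sites show maxima of 12.1% at +100 to +150 bp and 7.01% at -150 to -100 bp, and Meis1 summits a single one of 11.6% at -100 to -50 bp.

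Shared sites lay closer to the start than promoter peaks of one factor alone. The Hoxb13 peak spanned the start in 471 of 799 shared sites (58.9%, 55.4 to 62.4) and in 3977 of 8181 other Hoxb13 promoter peaks (48.6%, 47.5 to 49.7). It lay wholly upstream in 22.2% of shared sites against 17.8% of the others, and wholly downstream in 18.9% against 33.6%. Read the other way, the share of Hoxb13 promoter peaks that were shared was 14.7% for summits 200 to 300 bp before the start and 12.6% for summits 100 to 200 bp before it. It was 3.26% for summits 400 to 500 bp after the start. For Meis1, 48.4% of partner peaks spanned a start site against 34.8% of other Meis1 promoter peaks, and the median absolute distance of their summits was 143 bp against 233 bp. That the Meis1 partners were themselves almost all promoter peaks (740 of 746) follows in part from the promoter class of the Hoxb13 peak. Promoter summits of both factors were most frequent near the start, so choosing peaks by overlap can itself favour sites close to it. How much of these contrasts the rule sets was not tested.

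The sites were assigned to 731 genes. Of these 664 had 1 shared site, 66 had 2, and 4931408C20Rik had 3. Overlapping Hoxb13 peaks were listed separately in the deposited file, and merging the 111 sites that overlapped another shared site left 743 regions. Both factors' peaks were assigned to the same gene in 777 of 809 pairs (96.0%). By gene type, 746 sites were at protein-coding genes, 34 at long non-coding RNA genes and 15 at microRNA genes. Among protein-coding genes 681 had a shared site, which is 3.11% of 21896 and 10.1% of the 6723 with any Hoxb13 promoter peak. Both factors had a promoter peak at 1027 protein-coding genes, and in 655 of these (63.8%) at least 1 pair overlapped.

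The sites lay on every autosome and hardly on the X chromosome. Chromosome 16 had the highest share of Hoxb13 promoter peaks that were shared, 39 of 292 (13.4%, 9.67 to 17.8). Chromosome 2 had 48 of 690 (6.96%), and the X chromosome had 1 of 99 (1.01%, 0.0256 to 5.50).

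Genes were grouped by function with lists, and for each list the background is the 10.1% of all protein-coding genes with a Hoxb13 promoter peak. The counts that follow are for an overlap of 1 bp, and many of them fell with stricter overlaps, as did the background. Of 40 sarcomere genes, 30 had a Hoxb13 promoter peak and 8 of these (26.7%, 12.3 to 45.9) had a shared site. Besides Myh6 and Tnnt2 they were Ttn, the giant spring of the sarcomere, Des, the muscle intermediate filament, Pdlim5 and Myoz2 of the Z-disc, Filip1, and Trim63, a ubiquitin ligase of muscle. Myh6 was the strongest by the weaker rank, with strengths of 37.4 for Meis1 and 30.6 for Hoxb13. Myoz2 was the weakest, at 17.4 for Meis1 and 18.2 for Hoxb13, but its summits stood 18 bp apart. Of the 8 genes 3 remained with an overlap of at least 100 bp (10.0% of 30, against a background of 7.63%), and 1 with summits within 100 bp (3.33%, against 3.51%).

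Of 57 respiratory chain and ATP synthase genes with a Hoxb13 promoter peak, 13 (22.8%, 12.7 to 35.8) had a shared site. Of these 5 belonged to ATP synthase: Atp5g1, Atp5c1, Atp5e, Atp5b and Atp5a1. Atp5g1 had strengths of 47.6 for Meis1 and 33.6 for Hoxb13. Cox7a1, the muscle form of a cytochrome oxidase subunit, had 55.5 for Meis1 and 31.0 for Hoxb13, and Cox6a2, another muscle form, and Cox5b were also members. With an overlap of at least 100 bp 9 of the 57 had a shared site (15.8%, against a background of 7.63%), and with summits within 100 bp 4 did (7.02%, against 3.51%). Of 34 mitochondrial ribosomal protein genes with a Hoxb13 promoter peak 7 (20.6%) had a shared site. Of 58 cytosolic ribosomal protein genes only Rpl41 and Rpl13 did (3.45%, 0.42 to 11.9).

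Other metabolic lists gave 4 of 18 citric acid cycle genes, 5 of 26 glycolysis and hypoxia genes, 4 of 24 fatty acid oxidation genes and 3 of 24 mitochondrial carriers. Cs, citrate synthase, had a Meis1 strength of 40.1 and a Hoxb13 strength of 48.1. Pdk2, an inhibitory kinase of pyruvate dehydrogenase, had 46.6 for Meis1 and 33.5 for Hoxb13, and Esrra, a nuclear receptor of mitochondrial genes, had 42.5 for Meis1 and 30.8 for Hoxb13. Slc2a4, Gapdh, Pgam2, Hk1 and Egln2 were the members among glycolysis and hypoxia genes. Mfn1, a mitochondrial fusion protein, and Pink1, a mitophagy kinase, were the 2 of 17 in the list of mitochondrial dynamics.

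Immediate early genes, which respond within minutes to a stimulus, had the highest share of the lists with at least 10 Hoxb13-promoter genes, 6 of 20 (30.0%, 11.9 to 54.3). They were Fosb, Nr4a3, Fosl2, Jun, Zfp36 and Dusp1. Nr4a3 had a Meis1 strength of 70.1 and a Hoxb13 strength of 31.8, and Fosb had 48.4 for Meis1 and 32.2 for Hoxb13. Fosl2 had 62.8 for Hoxb13 and 29.8 for Meis1, at summits 316 bp apart. With an overlap of at least 100 bp 4 of the 20 had a shared site (20.0%), with a reciprocal overlap of at least 50% 1 did, and with summits within 100 bp none did. Genes of splicing and RNA binding had 7 of 33 (21.2%): Ptbp1, Ddx5, Rbfox2, Srsf4, Celf2, Rbfox1 and Mbnl2. With an overlap of at least 100 bp 3 of the 33 did (9.09%, against 7.63%).

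Of 21 cardiac transcription factor genes with a Hoxb13 promoter peak 4 had a shared site: Mef2a, Mef2d, Nkx2-5 and Mkl1. Nkx2-5, a homeobox regulator of the heart, had modest strengths of 22.3 for Meis1 and 19.6 for Hoxb13. Of 12 TALE homeobox genes 2 did, Pknox1 and Pbx3, and Pbx3 had a Meis1 strength of 87.6 and a Hoxb13 strength of 23.1 with summits 55 bp apart. None of the 3 Hox genes with a Hoxb13 promoter peak had one.

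Of 22 cell cycle inhibitors 2 (9.09%, 1.12 to 29.2, near the background) had a shared site, Cdkn1b and Btg1, and none of 14 activators did, which allows a share of up to 21.4%. Cdkn1b encodes p27, an inhibitor of cyclin-dependent kinases. Its Meis1 peak had a strength of 61.8 (rank 1810) and its Hoxb13 peak one of 28.2 (rank 4872), with the Meis1 summit at +4 bp and the Hoxb13 summit at +83 bp from the start. The strengths at Btg1, an antiproliferative gene, were 16.0 for Meis1 and 28.5 for Hoxb13.

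The remaining lists held few members. Calcineurin and NFAT genes had Rcan1, with a Meis1 strength of 110.1 and a Hoxb13 strength of 27.3, and Myoz2. Calcium handling and ion channel genes had Kcnh2, with 80.2 for Meis1 and 34.6 for Hoxb13, as the single case among 19. One gene each came from intercalated disc genes (Gja1), Hippo and growth factor genes (Nf2), insulin and Foxo genes (Sesn1), clock genes (Per3) and translation factors (Eef2). Chaperones had Hspa8, Hspb8 and Trim63, histone modifiers Kdm4b and Smarca2, and proteasome subunits Psmd4 and Psmb10.

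Of 157 genes whose symbols start with Zfp and that had a Hoxb13 promoter peak, 23 (14.6%, 9.52 to 21.2) had a shared site. They include Zfp36 and Zfp36l1, which bind RNA rather than DNA. Of 81 microRNA genes 13 (16.0%, 8.83 to 25.9) did, among them Mir133a-1, Mir133a-2 and the hypoxia-induced Mir210, which had strengths of 57.2 for Meis1 and 28.2 for Hoxb13. The only olfactory receptor gene was Olfr195, with strengths of 17.4 for Meis1 and 18.6 for Hoxb13.

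Lists of markers of other cell types were counted in the same way. Of 11 fibroblast genes with a Hoxb13 promoter peak none had a shared site, which allows a share of up to 27.3%. Of 19 endothelial genes Erg did, and of 5 smooth muscle genes Des did, which cardiac muscle also expresses. Of 24 genes each for leukocytes, neurons and liver, 1, 2 and 0 had a Hoxb13 promoter peak. None of these had a shared site, but they are too few for that to be informative. Peaks mark bound chromatin and not expression, so these counts do not measure how many cells of each type were present.

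**Figure D4:**
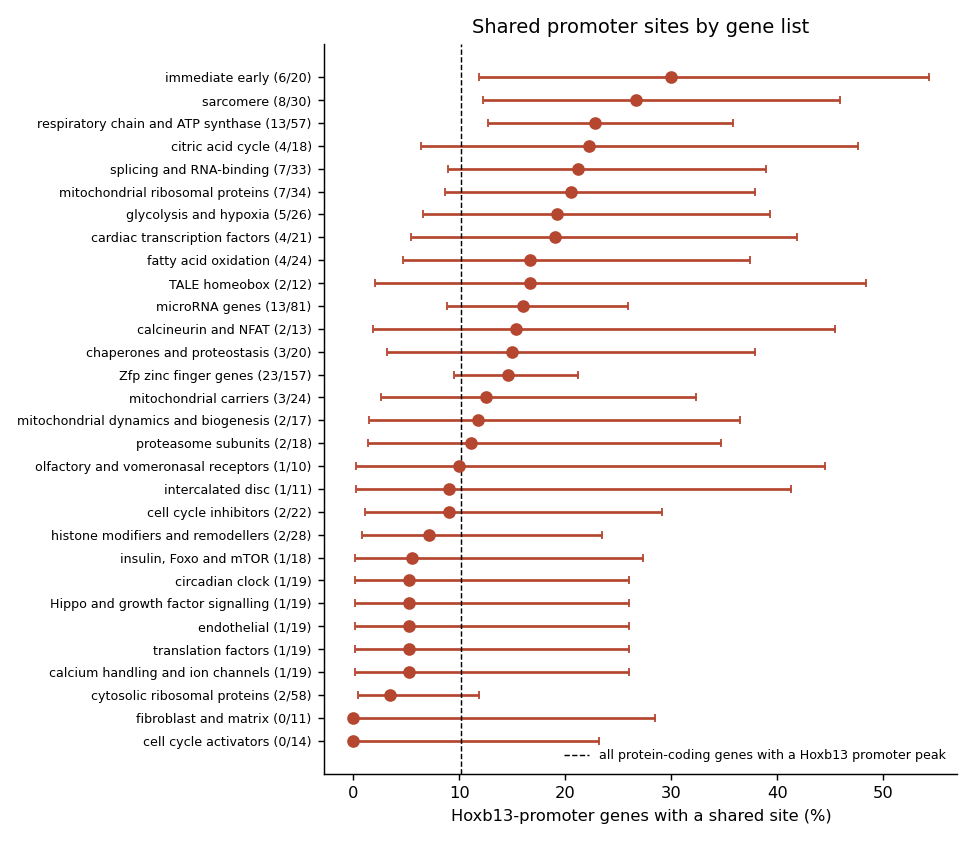
Share of genes with a Hoxb13 promoter peak that have a shared site (x, percent), for each gene list with at least 10 such genes (y, with the counts), and exact 95% binomial intervals. The dashed line is the 10.1% of all protein-coding genes with a Hoxb13 promoter peak, and immediate early, sarcomere and respiratory chain genes are the lists whose whole intervals lie to its right at this overlap of 1 bp. With summits within 100 bp the counts of these 3 lists were 0 of 20, 1 of 30 and 4 of 57, and the share of all protein-coding genes was 3.51%. No list was tested, and the intervals make no allowance for the number of lists. The lists were chosen with earlier results of these data known.

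Peaks elsewhere at these genes were also counted. Of the 681 protein-coding genes 44.5% (40.7 to 48.3) had a Meis1 peak outside promoters, against 40.5% (39.2 to 41.7) of the 6042 genes with an unshared Hoxb13 promoter peak only. For Hoxb13 peaks outside promoters the shares were 41.1% (37.4 to 44.9) and 37.3% (36.1 to 38.6), and in both cases the intervals overlapped. A site shared by both factors outside promoters was assigned to 57 of the 681 genes (8.37%, 6.40 to 10.7) and to 331 of the 6042 (5.48%, 4.92 to 6.08). Gene length was not taken into account in these shares.

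Sequence could be read for part of the sites. Of the 799 sites 537 overlapped a RefSeq promoter window of 300 bp, and 665 windows were touched by a shared site, against 5082 windows touched by Hoxb13 peaks alone and 719 by Meis1 peaks alone. A further 91 windows were touched by peaks of both factors but by no shared site. In base composition the shared windows resembled Hoxb13 windows. Their median GC content was 63.7%, against 64.3% in windows with Hoxb13 alone, 56.7% in windows with Meis1 alone and 52.7% in all 32817 windows. The median ratio of observed to expected CpG was 0.817 in shared windows, 0.824 with Hoxb13 alone, 0.619 with Meis1 alone and 0.383 in all windows.

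In Meis letters the shared windows resembled Meis1 windows. The Meis core TGACAG, searched on both strands like every motif here, was in 259 of 665 shared windows (38.9%, 35.2 to 42.8). It was in 12.3% of windows with Hoxb13 alone, 44.8% with Meis1 alone and 19.2% of all windows. Among windows with a CpG ratio of at least 0.6 the shares were 36.5% in shared windows, 11.5% with Hoxb13 alone, 47.4% with Meis1 alone and 14.4% of all 11743 such windows. The Pbx-Meis core TGATTGAC was in 35 shared windows (5.26%, 3.69 to 7.24), against 0.453% with Hoxb13 alone, 2.92% with Meis1 alone and 0.771% of all windows. The 91 windows with both factors but no shared site were like the shared windows. They held the Meis core in 37.4% (27.4 to 48.1) and the Pbx-Meis core in 4.40% (1.21 to 10.9).

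The Hoxb13 core was rare in all of these promoters. CAATAAA was in 19 of 665 shared windows (2.86%, 1.73 to 4.43), against 2.26% with Hoxb13 alone, 3.34% with Meis1 alone and 4.60% of all windows. A second form reported for posterior Hox proteins, CTCGTAAA, was in none of the shared windows, which allows a share of up to 0.451%. TTTATG, another posterior Hox sequence, was in 5.11% of shared windows, 4.84% with Hoxb13 alone and 11.9% of all windows. Among windows with a CpG ratio of at least 0.6, CAATAAA was in 17 of 556 shared windows (3.06%, 1.79 to 4.85). It was in 2.10% with Hoxb13 alone, 3.27% with Meis1 alone and 2.34% of all. The interval of the shared windows holds the share of all windows, so the lower share seen without this limit was not kept. TTTATG was then in 4.68% of shared windows and 4.96% of all. The windows end 50 bp after the start, so Hoxb13 peaks downstream of it were read only in part.

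The CCAAT box, the site of the general promoter factor NF-Y, was in 53.7% of shared windows (49.8 to 57.5), against 37.6% with Hoxb13 alone, 40.3% with Meis1 alone and 37.4% of all windows. Where a C stands before the Hoxb13 core, its first letters also complete a CCAAT box, so the 2 motifs can overlap. The GC box GGGCGG was in 74.9% of shared windows, against 72.6% with Hoxb13 alone and 51.0% with Meis1 alone. The Ets core CCGGAAG was in 22.7%, against 19.6% with Hoxb13 alone and 14.0% with Meis1 alone. The TATA box TATAAA was in 2.86%, against 5.47% with Hoxb13 alone and 9.60% with Meis1 alone, and the muscle Mef2 site (its usual form with 4 free bases in the middle) was in 3.01%, 2.62% and 3.20% of these 3 kinds of window. The Tead site CATTCC was in 8.12%, the GATA site AGATAA in 2.86%, the E-box CACGTG in 9.92% and the cyclic AMP element TGACGTCA in 3.76% of shared windows. The shares in all windows were 14.7%, 11.2%, 7.15% and 1.79% in the same order. The Nrf1 core GCATGCGC was in 4.96% of shared windows against 2.71% of all, the YY1 core AAGATGGC in 4.51% against 2.74%, and TCAAGGTCA, a site of estrogen-related receptors, in none against 0.424%. In all windows the TATA box was in 13.6%, the GC box in 35.6% and the Ets core in 8.86%. Most of these contrasts with all windows shrank or turned among windows with a CpG ratio of at least 0.6. There the Nrf1 core was in 5.58% of shared windows against 6.14% of all, the YY1 core in 5.22% against 4.84%, the E-box in 61 of 556 against 1321 of 11743 and the cyclic AMP element in 4.32% against 3.66%. The Tead site was in 7.91% against 9.92%, the GATA site in 2.34% against 4.45%, the TATA box in 1.98% against 5.98%, the GC box in 79.5% against 72.3% and the Ets core in 24.1% against 18.7%. In such windows with Hoxb13 alone and with Meis1 alone, the TATA box was in 5.01% and 5.45%, so its contrast with Hoxb13 alone remained. The GC box was in 77.9% and 76.3% of them, and the Ets core in 21.5% and 22.6%. The CCAAT box kept its contrast with windows of 1 factor alone, at 53.4% (49.2 to 57.6) of shared windows, 37.4% with Hoxb13 alone, 38.1% with Meis1 alone and 35.7% of all. Windows with both factors but no shared site were close to the shared windows. They held the box in 44 of 91 (48.4%, 37.7 to 59.1) and, at this CpG ratio, in 28 of 54 (51.9%, 37.8 to 65.7).

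The Meis core stood close to Meis1 summits. In own-gene windows the core was counted only in the bases before the start. Of 519 shared sites whose own gene had a window they overlapped, 193 had the core there. Of its 219 occurrences 175 fell inside the Meis1 peak, 118 inside the Hoxb13 peak and 99 inside both. More Hoxb13 than Meis1 summits lay after the start, so the counts inside the 2 peaks are not directly comparable. For the densities around summits the whole windows were read. Within 50 bp of the Meis1 summits of shared sites the Meis core occurred 4.85 times per kb of readable sequence, with 173 occurrences. At 50 to 100 bp, 100 to 150 bp and 150 to 200 bp it occurred 0.933, 0.627 and 0.556 times per kb. Around the summits of other Meis1 promoter peaks the densities were 5.28, 1.14, 0.768 and 0.768 per kb over the same steps. Around the Hoxb13 summits of shared sites the Meis core showed no such step, with 1.73, 1.13, 1.49 and 1.61 per kb, against 0.433, 0.411, 0.439 and 0.421 around other Hoxb13 promoter summits.

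No accumulation of the Hoxb13 core at Hoxb13 summits was detectable with so few occurrences. It occurred 0.151, 0.0364, 0.0710 and 0.0374 times per kb over the same steps at shared sites, against 0.0595, 0.0711, 0.0780 and 0.0774 at other Hoxb13 promoter peaks. The shared densities rest on 4, 1, 2 and 1 occurrences. The CCAAT box was denser near Hoxb13 summits, with 4.90, 4.69, 3.62 and 3.18 per kb at shared sites, against 3.32, 2.67, 2.26 and 1.92 per kb at the other Hoxb13 promoter peaks. Within 50 bp of Meis1 summits it was also denser at shared sites, with 4.54 per kb against 2.49 at other Meis1 promoter peaks.

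**Figure D5:**
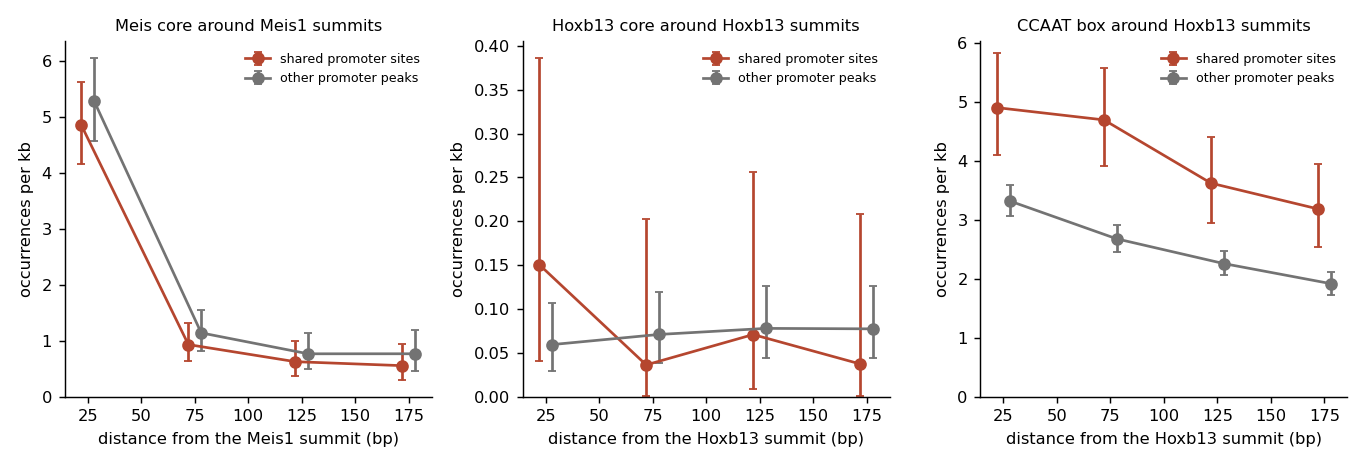
Occurrences per kb of readable promoter sequence (y) in 4 steps of distance from the summit (x, bp, either side), for the Meis core around Meis1 summits, the Hoxb13 core around Hoxb13 summits and the CCAAT box around Hoxb13 summits, at shared promoter sites and at other promoter peaks of the same factor, with exact 95% Poisson intervals. The Meis core drops from 4.85 to 0.933 per kb past 50 bp at shared sites, while the Hoxb13 core stays at or below 0.151 per kb.

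Strength and motif went together for each factor's peaks. Of the 281 Meis1 partner peaks whose central 100 bp was readable, 128 (45.6%, 39.6 to 51.6) had the Meis core there. Their median strength was 32.7 (quartiles 23.8 and 52.4), against 23.3 (18.6 and 30.6) in the 153 without it. The core was present in 44 of 64 partner peaks from the strongest 10% of the Meis1 list (68.8%), in 45.0% of those ranked from 10% to 50%, and in 7 of 46 from the weaker 50% (15.2%). Other Meis1 promoter peaks had 65.4%, 46.3% and 23.4% in the same classes, and their intervals overlapped those of the shared sites in each class.

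For Hoxb13, the CCAAT box was within 50 bp of the summit in 73 of 195 readable shared sites (37.4%, 30.6 to 44.6) and in 345 of 1317 other Hoxb13 promoter peaks (26.2%, 23.8 to 28.7). In the strongest 10% of the Hoxb13 list it was present in 28 of 49 shared sites (57.1%, 42.2 to 71.2) and in 132 of 305 others (43.3%, 37.6 to 49.0). At ranks from 10% to 50% it was present in 36.6% (26.8 to 47.2) of shared sites and 22.5% (19.4 to 25.8) of others. In the weaker 50% the box was present in 20.8% (10.8 to 34.1) of shared sites and 18.1% (14.1 to 22.6) of others. The intervals overlapped in the strongest and the weaker class and not in the middle one. The strength of shared sites with the box had quartiles of 23.9 and 42.2, and of those without it 20.2 and 32.5.

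Of 628 shared sites with at least 1 start inside the Hoxb13 peak or within 500 bp of it, 133 (21.2%) had starts on both strands there. Divergent, convergent and overlapping pairs of starts were not told apart. The shares were 1008 of 5932 (17.0%) at other Hoxb13 promoter peaks and 89 of 735 (12.1%) at other Meis1 promoter peaks.

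At the edges of the rule, membership turned on small distances. The overlap was 2 bp at 4930577N17Rik, Gtpbp2, Mir133a-1, Nrbp1 and Zfp68, and under 10 bp at 13 sites. Just outside it, the peaks at Elac1 and Gtf2i abutted a Meis1 peak, those at Mesd and 1110020A21Rik missed one by 1 and 2 bp, and 18 Hoxb13 promoter peaks had a Meis1 peak within 10 bp. At the promoter limit, the last sites inside were Hes1 at -982 bp and Mir133a-1 at -956 bp, and the first overlapping Hoxb13 peaks outside were at Hnrnpl (1010 bp) and Atcayos (1014 bp).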

How the data were processed

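Each factor had 1 peak list in mm10 coordinates, covering its 3 libraries. The submitters' processing notes name Bowtie2 (2.2.3), deepTools (1.6), ChIPseeker and Picard. Which program called the peaks, at which threshold and how libraries were joined was not given in the sources used here. A signal value per peak, deposited by the authors, was used as strength and for ranks within a list. The score deposited by the authors beside it was not used. Positions, summit offsets, annotation classes, distances and genes were taken as deposited. Input libraries entered no comparison.

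Overlaps needed at least 1 bp. Genes were matched by identifier to a RefSeq table (GRCm38.p6), and motifs were counted on both strands in RefSeq promoter windows from 250 bp before to 50 bp after the start, which cover no site on chromosome 18. Steps used Python 3.11.15, pandas 2.3.3, numpy 2.4.6 and scipy 1.17.1 and were tested on simulated peaks. The members, gene lists and motifs were chosen with earlier results of these data known. Genes named are the 15 first by weaker rank, the 10 strongest of each factor, the 10 closest summit pairs in the stronger 50% of both lists, up to 4 per gene list (all where 4 or fewer) and genes with the most sites. The other list members named were added after their values were seen, and 1 gene is not reported here. Neighbouring or overlapping peaks count separately unless merging is stated.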

Additional observations from a re-analysis of the deposited data

How the results depend on the processing

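Of 76 recomputed values 52 stayed within the interval or the 1.5-fold range of the reported one and 24 did not, most of them under alternatives that keep fewer or closer pairs. The number of shared sites was 333 with a reciprocal overlap of at least 50%, 256 with summits within 100 bp and 494 in the stronger 50% of each list with any Meis1 partner counted. The median summit distance was 116, 71 and 51 bp with an overlap of 100 bp, the reciprocal overlap and summits within 100 bp. The share spanning the start was 62.5%, 63.4% and 66.0% in the same order, and 62.5% with the start within 500 bp. The median Hoxb13 rank was 6638 with the reciprocal overlap, 7032 with summits within 100 bp and 3581.5 in the stronger 50%, where the median Meis1 rank was 5377.5 by construction. The share of partners in the promoter class was 100% with summits within 100 bp, with the start within 500 bp and, by construction, with Meis1 promoter peaks only. The share of protein-coding genes was 2.34%, 1.38%, 1.08% and 2.01% with an overlap of 100 bp, the reciprocal overlap, summits within 100 bp and the stronger 50%. The Meis core was in 34.5% of windows with the reciprocal overlap and in 32.9% when only bases before the start were read. With the reciprocal overlap 1 of 30 sarcomere (3.33%), 1 of 20 immediate early (5%) and 4 of 57 respiratory chain genes (7.02%) were shared. Among all protein-coding genes with a Hoxb13 promoter peak the share was then 4.49%. In the stronger 50% these lists had 5 of 30 (16.7%), 6 of 20 (30%) and 7 of 57 (12.3%), against 6.54%. The median CpG ratio was 0.835 with summits within 100 bp. The Hoxb13 core share stayed within its interval in every alternative run. Windows with a CpG ratio of at least 0.6 were an alternative chosen after seeing the data. Reading motifs over the whole Hoxb13 peak was not run, since no genome was used here. No paired analysis was possible because each factor has 1 list, which holds no value per replicate, and for the same reason no replicate could be left out. Read depth is unknown, so neither a missing peak nor a missing overlap shows an absence of binding.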
